A study of Mus musculus with 6 samples.

Results

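The interferon-stimulated antiviral effector genes were followed in 4T1 cells, a mouse mammary carcinoma line, grown in 3D collagen I gels. Their members are 41 genes chosen by symbol from the families IFIT, OAS, MX, PARP and TRIM, the ISG15 system and other antiviral effectors. They were chosen with earlier results of these data known, so their counts of calls are a description and not an independent test. Of the 41 genes, 40 were among the 31017 genes of the count table and 33 passed the filter on low counts, against 12076 genes that passed in all. Mx2 was not analysed here. The series held 3 control samples, from cells nucleofected with Cas9 and control guide RNAs, and 3 ETV4 KO samples, from cells nucleofected with Cas9 and guides against Etv4, which encodes an ETS transcription factor. All 6 samples were cultured in collagen I gels, and poly(A) RNA was read from cells released by collagenase. The 3 ETV4 KO libraries carry 1 library code, c39, which the sources used here do not explain, so whether it is 1 clone is unknown. Separate cultures are not named for the 3 samples of either group. The p-values below therefore reflect the spread among these 6 libraries, part or all of which may be technical.

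Type I interferons bind a receptor of IFNAR1 and IFNAR2, whose kinases JAK1 and TYK2 activate transcription factors such as STAT2. With IRF9 it joins a complex that binds the interferon-stimulated response element (ISRE) in the promoters of effector genes, while interferon gamma acts at the gamma-activated site (GAS). The effectors then bind or degrade viral RNA, block fusion or budding at membranes, or modify proteins with ISG15, ubiquitin or ADP-ribose, and many cell types keep a low level of them without infection.

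Libraries held 22355015 to 29042569 counts, and 15515 to 15800 genes had at least 1 count in each. Levels are given as CPM, counts relative to the library's total after TMM scaling, which corrects totals for differences in composition. Across genes, log2 CPM of 2 libraries correlated with a Pearson's r of 0.998 within the groups and 0.969 to 0.970 between them. Etv4 itself was at 134, 135 and 133 CPM in control replicates 1, 2 and 3 and at 87.4, 89.5 and 92.3 CPM in ETV4 KO, a log2 difference of -0.58 (SE 0.036). The 101 other expressed genes in its 10 Mb stretch of chromosome 11 had a median of -0.46. What part of the Etv4 fall belongs to this stretch was not tested. Counts over the whole gene do not show whether the ETV4 protein was lost. Of the related factors, Etv5 had -0.65 and Etv1 -0.10. The 5 mammary epithelial markers (Krt8, Krt18, Krt14, Epcam and Cdh1) were present in every library, with a summed level of 4653 to 4790 CPM in control and 3293 to 3437 CPM in ETV4 KO. All 5 were called lower, against 36.0% of all tested genes, with log2 differences from -0.19 (Cdh1) to -1.37 (Epcam). Of 6 leukocyte markers, Adgre1 and Lyz2 had 0 counts in all libraries, and only Cd68 exceeded 1 CPM. Csf1r averaged 0.520 CPM in control and 0.0600 CPM in ETV4 KO, while Ptprc went the other way, from 0.108 to 0.209 CPM. The leukocyte sum was 9.83 to 10.5 CPM in control and 9.41 to 11.4 CPM in ETV4 KO. Of 6 fibroblast markers only Pdgfra exceeded 1 CPM, Lum had 0 counts, and the sum was 9.87 to 11.7 CPM in control against 12.9 to 14.6 CPM in ETV4 KO. The 4 endothelial markers were under 1 CPM each, with sums of 0.220 to 0.604 against 0.121 to 0.314 CPM. The part of these marker differences in the results below was not tested. In bulk RNA, fewer cells with a transcript and less transcript per cell cannot be told apart.

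Antiviral effector genes were lower in ETV4 KO cells in most families. Of the 33 tested genes, 30 were called lower, 2 higher (Ifit2 and Shisa5) and 1 neither way (Oasl1), at an adjusted p under 0.05 in edgeR's quasi-likelihood test. Their median log2 fold change was -1.38, where 12076 tested genes had a median of -0.004. Calls were common in this comparison: 71.1% of all tested genes were called, 36.0% lower and 35.0% higher. A fall of at least 2-fold was rarer, and 20 of the 33 genes had one, against 6.02% of all tested genes. The groups did not overlap in 31 of the 33 genes, against 72.7% of all genes. In 29 of these every ETV4 KO library lay below every control library, against 36.6% of all genes, and in Ifit2 and Shisa5 every ETV4 KO library lay above. Tested against a fold change of 1.5 (edgeR's glmTreat), 23 of the 33 were lower, against 7.86% of all genes. Oasl1 and Ifitm2 had overlapping groups.

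The filter asked for about 0.403 CPM, here without TMM scaling, in 3 libraries. Ifit1, Oas1a, Oas1g, Usp18, Rtp4 and Cmpk2 reached this in all 3 control libraries but not in all 3 ETV4 KO libraries, so that their control level alone carried them through. The other 27 reached it in all 6 libraries. Of these, 24 were called lower, 14 of them by at least 2-fold, with a median of -1.05, and the shares among the 11300 genes that met the same condition were 35.5% and 3.74%. The 7 genes that did not pass were Ifit3, Ifit3b, Ifi44, Rsad2, Oas2, Mx1 and Trim30a. The summed level of the 40 genes was 823.9 CPM ± 12.0 (SD, n = 3) in control and 462.8 CPM ± 6.84 (SD, n = 3) in ETV4 KO. Ifitm3, Shisa5 and Trim25 made up much of it, and without them it was 500.2 CPM ± 5.84 (SD, n = 3) against 253.8 CPM ± 5.85 (SD, n = 3).

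**Figure D1:**
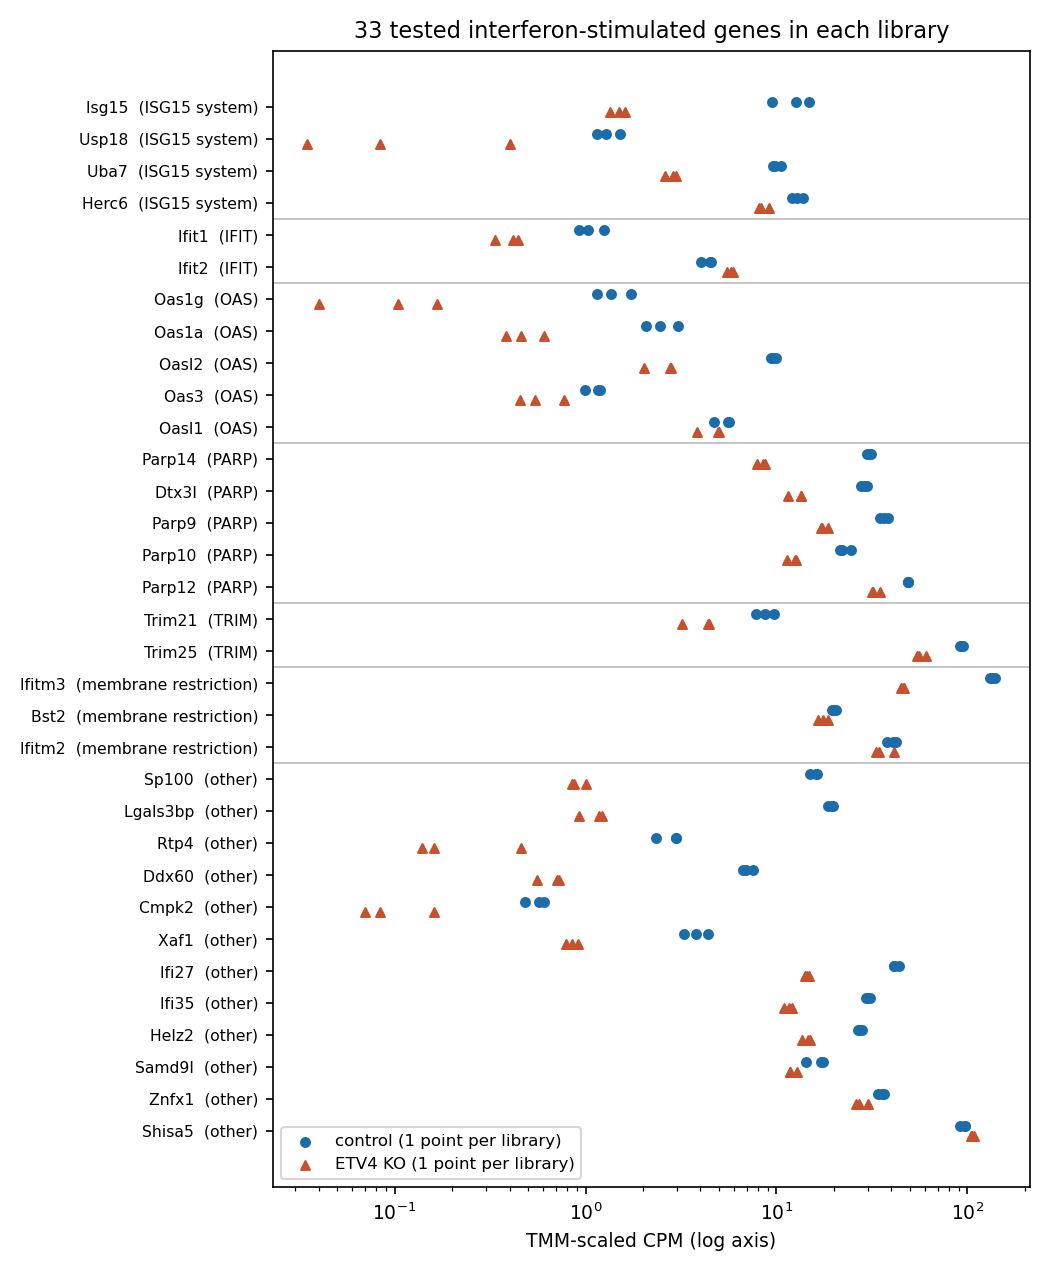
TMM-scaled CPM on a log axis for the 33 tested effector genes, grouped by family, with 1 point per library (circles for the 3 control, triangles for the 3 ETV4 KO libraries). The triangles lie left of the circles for 29 genes, right of them for Ifit2 and Shisa5, and overlap with them for Oasl1 and Ifitm2.

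Promoter sequences are shown because the ISRE is the element through which type I interferon acts on effector genes. RefSeq windows from 250 bases before to 50 after the gene start (GRCm38.p6, which shares its coordinates with mm10) were at hand for 32 of the 41 genes; Ifi27, Oas2, Mx1, Mx2, Usp18, Rtp4, Parp9, Parp10 and Parp14 had no entry. The ISRE was searched as GAAA, any 2 bases and GAAA again, the GAS as TTCNNNGAA and the ETS site as CCGGAAGT or CAGGAAGT, each on both strands. ISRE letters stood in at least 1 window of 15 of the 32 genes (46.9%), against 3.99% of the 27025 genes with a window. GAS letters stood in 6 (18.8%, against 9.55%). The ETS letters CCGGAAGT stood in Ifit2 alone (3.12%, against 4.31%), and CAGGAAGT in 4, Samd9l, Shisa5, Sp100 and Trim25 (12.5%, against 3.86%). ISRE and GAS matches overlapped in Bst2, Ifitm3 and Shisa5, and no ETS match overlapped another motif. A match describes letters in the window and not a site in use.

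Of the 6 stretches printed here, Isg15, Oas1a, Oas1g and Ddx60 belong to genes with large falls, and Ifit1 and Ifit2 are neighbours on chromosome 19 that differed in direction. Each is 120 bases long, 5′ to 3′ on the gene's strand, with ISRE, GAS and ETS letters in capitals, and ends at the base before the gene start, except that of Ifit2, which is the first stretch of its window. Isg15 (chr4:156200819-156200938, minus strand) has 3 overlapping ISRE matches between positions -78 and -57 from the start.
Isg15: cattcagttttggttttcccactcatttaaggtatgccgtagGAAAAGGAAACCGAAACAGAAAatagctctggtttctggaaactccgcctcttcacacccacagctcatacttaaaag
Ifit1 (chr19:34640769-34640888, plus strand) has a pair of ISRE matches in reverse orientation, at -104 and -85.
Ifit1: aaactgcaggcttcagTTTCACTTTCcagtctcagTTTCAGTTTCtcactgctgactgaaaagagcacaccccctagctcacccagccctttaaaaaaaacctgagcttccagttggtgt
The Ifit2 stretch (chr19:34550444-34550563, plus strand) starts at position -250 and holds GAS letters at -241 and the ETS letters CCGGAAGT at -203. No ISRE letters in this spelling stand in its windows.
Ifit2: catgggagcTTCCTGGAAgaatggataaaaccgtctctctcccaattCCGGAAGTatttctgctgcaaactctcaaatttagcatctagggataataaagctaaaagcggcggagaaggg
Oas1a (chr5:120907526-120907645) and Oas1g (chr5:120887614-120887733), both on the minus strand, share the pair of overlapping ISRE matches next to the start, and Oas1a also has GAS letters at -98.
Oas1a: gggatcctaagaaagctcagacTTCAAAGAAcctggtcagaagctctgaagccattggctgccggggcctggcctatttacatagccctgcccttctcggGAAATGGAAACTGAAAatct
Oas1g: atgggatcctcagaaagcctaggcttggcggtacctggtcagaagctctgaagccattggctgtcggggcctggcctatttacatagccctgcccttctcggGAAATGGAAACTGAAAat
Ddx60 (chr8:61927967-61928086, plus strand) has the same ISRE letters at both -53 and -19.
Ddx60: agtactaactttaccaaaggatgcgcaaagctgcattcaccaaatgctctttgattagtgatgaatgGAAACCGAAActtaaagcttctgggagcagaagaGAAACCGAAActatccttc

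**Figure D2:**
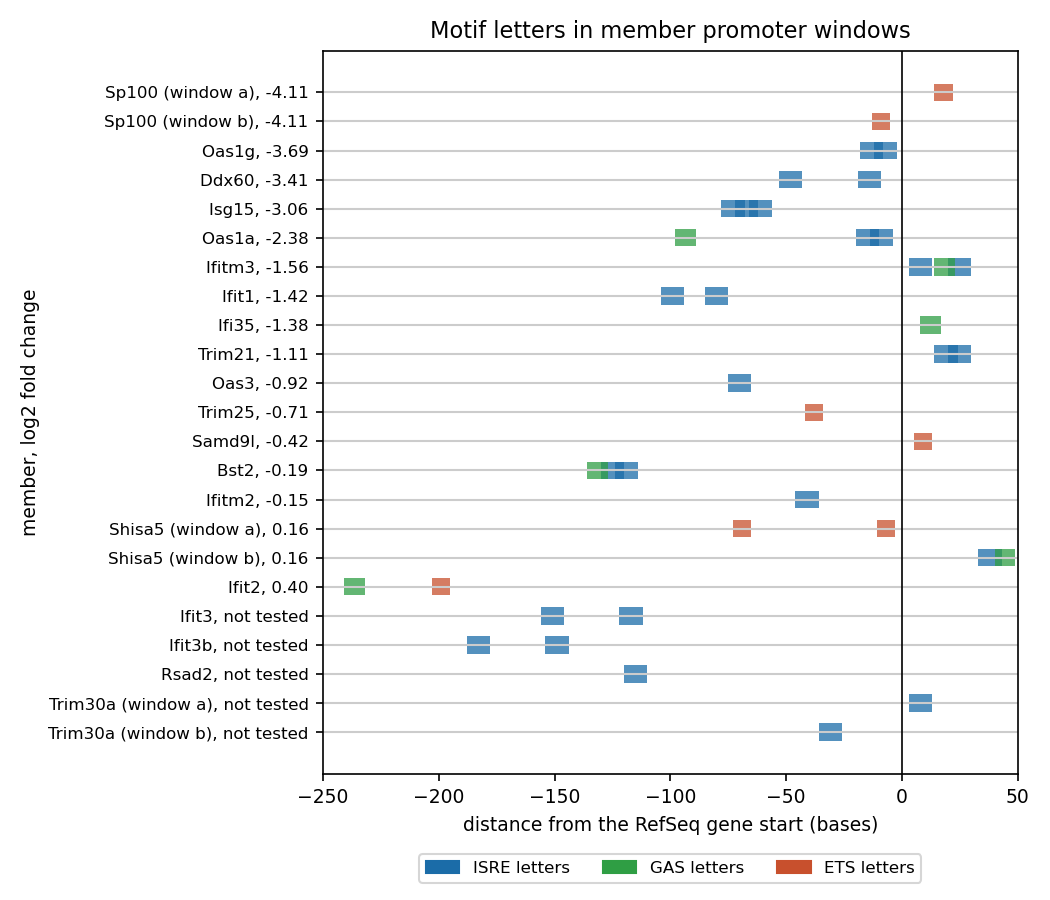
Matches to ISRE (blue), GAS (green) and ETS (red) letters in the promoter windows of the effector genes that have any, by distance from the RefSeq gene start in bases, ordered by log2 fold change (beside each name; windows a and b are separate starts of 1 gene). Genes with ISRE letters run from -3.69 (Oas1g) to 0.16 (Shisa5).

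Of the tested genes with a window, 11 had ISRE letters, of which 10 were called lower and 1 higher, with log2 fold changes from -3.69 to 0.16. The other 16 had no ISRE letters in this spelling, of which 14 were called lower, 1 higher and 1 neither way, with log2 fold changes from -4.11 to 0.40. Over all tested genes 36.0% were called lower. Ifit1, Oas1a and Oas1g among the 11 and Cmpk2 among the 16 passed the filter on their control level alone, so these counts are a description. The ranges overlapped over most of their length. Sp100 and Lgals3bp, with the largest falls, were among the genes without ISRE letters.

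The ISG15 system was called lower in all 4 members, against 36.0% of all tested genes. Isg15, the ubiquitin-like modifier that is joined to target proteins, was at 9.44, 14.8 and 12.7 CPM in control replicates 1, 2 and 3 and at 1.61, 1.49 and 1.34 CPM in ETV4 KO. Its control libraries spread by 22.1% (SD over mean), the widest control spread of the tested genes, yet the lowest was still several times the highest ETV4 KO library, and the log2 difference was -3.06 (SE 0.16, edgeR adjusted p = 1.70e-16). Uba7, the enzyme that activates ISG15, was at 10.5, 9.79 and 9.59 CPM in control and 2.86, 2.99 and 2.59 CPM in ETV4 KO (-1.82, SE 0.11). Herc6, the main ISG15 ligase in mouse, fell less, from 13.8, 12.7 and 12.1 to 8.35, 9.13 and 8.07 CPM (-0.59, SE 0.086). Usp18, the protease that removes ISG15 and restrains signalling at IFNAR2, had 35, 31 and 29 counts in control and 1, 10 and 2 in ETV4 KO (-2.92, SE 0.42). ETV4 KO replicate 2 held most of the remaining Usp18 counts, and without it the log2 fold change was -4.39. Ube2l6, the ISG15 conjugating enzyme, which is outside the 41 genes, also fell (-1.30, SE 0.15). Usp18 passed the filter on its control level alone, while Isg15, Uba7 and Herc6 reached the cutoff in all 6 libraries and were each lower.

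The IFIT family, whose proteins bind foreign RNA ends, moved in both directions. Ifit1 was at 1.03, 1.26 and 0.924 CPM in control and 0.419, 0.444 and 0.335 CPM in ETV4 KO, from 21 to 34 and 8 to 12 counts, with a log2 difference of -1.42 (SE 0.31, edgeR adjusted p = 1.52e-04). Ifit2 was at 4.53, 4.47 and 4.00 CPM in control and 5.80, 5.49 and 5.94 CPM in ETV4 KO, with a log2 difference of 0.40 (SE 0.12, edgeR adjusted p = 0.00313). The groups did not overlap in either gene, as in 72.7% of all tested genes, and these neighbours differed in opposite directions. The other expressed genes of their 10 Mb bin had a median of 0.17, and with this median taken out Ifit2 had 0.23 and was no longer called (edgeR adjusted p = 0.0879). Ifit3 had 7 counts over the 3 control and 11 over the 3 ETV4 KO libraries, a control to KO ratio of 0.674 (95% counting interval 0.221 to 1.90), and Ifit3b had 5 and 4, a ratio of 1.32 (0.285 to 6.67). A difference in either was not detectable at this depth. Of the 50-base words in Ifit3 transcripts, 51.2% also occur in Ifit3b, so reads of this pair cannot be cleanly assigned.

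In the OAS family, whose enzymes make the oligoadenylate that activates RNase L, 4 of 5 tested genes were called lower, against 36.0% of all tested genes. Oas1a and Oas1g passed the filter on their control level alone, a route that favours genes with a fall. Oas1a reached the cutoff in 2 ETV4 KO libraries and Oas1g in 0, while Oas3, Oasl1 and Oasl2 reached it in all 6 libraries. Oas1a was at 3.06, 2.07 and 2.46 CPM in control and 0.384, 0.606 and 0.460 CPM in ETV4 KO (-2.38, SE 0.26), and Oas1g had 40, 31 and 31 counts in control against 3, 1 and 4 (-3.69, SE 0.41). Both fell, with no overlap of the groups, as in 72.7% of all tested genes in either direction. These copies share 57.6% of the 50-base words of Oas1a, so their single values are uncertain, and their sum was 3.94 CPM ± 0.792 (SD, n = 3) in control and 0.588 CPM ± 0.0858 (SD, n = 3) in ETV4 KO. Oas3 was at 1.16, 0.997 and 1.19 CPM and 0.454, 0.767 and 0.544 CPM (-0.92, SE 0.28, edgeR adjusted p = 0.00495). Oas2 had 1 count in each group. The OAS-like genes differed from each other. Oasl2 fell from 9.96, 9.34 and 9.59 CPM to 2.79, 2.02 and 2.76 CPM (-1.92, SE 0.12), while Oasl1, known in mouse to limit IRF7 production, was at 4.70, 5.65 and 5.54 CPM and 4.93, 5.01 and 3.85 CPM, overlapping between groups (-0.20, SE 0.13, edgeR adjusted p = 0.155). Oasl1 and Oasl2 are neighbours whose 10 Mb bin had a median of 0.21. With it taken out Oasl1 was called lower, with -0.41 (edgeR adjusted p = 0.00597), and without ETV4 KO replicate 3 it had -0.09 (edgeR adjusted p = 0.543).

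Mx1, a GTPase that blocks influenza virus replication, had 2 counts, both in control replicate 2, and 0 in the other libraries. At these depths 0 counts allows up to 0.132 CPM in the smallest library (3 counts), so Mx1 was at or near the limit in both groups and no fold is given.

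The PARP group, which modifies proteins with ADP-ribose, was called lower in all 5 members, against 36.0% of all tested genes. In each of the 5 every ETV4 KO library lay below every control library, as in 36.6% of all tested genes. Parp14, a mono-ADP-ribosyltransferase with macrodomains, was at 31.0, 29.8 and 31.5 CPM in control and 8.66, 7.88 and 8.49 CPM in ETV4 KO, a log2 difference of -1.88 (SE 0.068, edgeR adjusted p = 2.11e-20). Parp9 fell from 34.8, 38.3 and 36.7 to 17.3, 18.6 and 17.2 CPM (-1.05, SE 0.059). Its partner in a ubiquitin ligase complex, Dtx3l, went from 27.9, 29.7 and 28.6 to 13.4, 13.5 and 11.5 CPM (-1.17, SE 0.067). The falls in this pair were of similar size. Parp9 and Dtx3l are transcribed in opposite directions and their exons overlap by 458 bases, and the sources do not state the strand setting of the counting. Reads in the shared part may be misplaced. Their sum was 65.4 CPM ± 2.65 (SD, n = 3) in control and 30.5 CPM ± 1.74 (SD, n = 3) in ETV4 KO. Parp10 fell from 22.2, 21.6 and 24.7 to 12.7, 12.6 and 11.3 CPM (-0.90, SE 0.072). It shares 205 exon bases on the same strand with Plec, a cytolinker gene at 1005 CPM in control and 1067 CPM in ETV4 KO. Parp12, with the highest control level of the group per kb, had the smallest fall, from 49.1, 48.9 and 48.7 to 32.1, 31.8 and 35.0 CPM (-0.57, SE 0.050).

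Among the TRIM ubiquitin ligases, both tested genes were called lower, against 36.0% of all tested genes. Trim21, the cytosolic antibody receptor, went from 9.70, 7.79 and 8.75 CPM to 4.44, 4.40 and 3.22 CPM (-1.11, SE 0.12). Trim25, which ubiquitinates the RNA sensor RIG-I, went from 93.8, 94.9 and 91.2 CPM to 60.4, 56.0 and 54.2 CPM (-0.71, SE 0.043), and had -0.40 with its bin median of -0.32 taken out. Trim30a had 6, 11 and 6 counts in control and 0 in each ETV4 KO library. With 3 counts summed across the ETV4 KO libraries as the floor, ETV4 KO was at least 8.12-fold lower. This figure takes the control counts as exact and leaves out their counting error. Trim30a did not pass the filter and has no test.

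The membrane restriction factors differed among themselves. Ifitm3, which blocks fusion of virus and endosome, was at 132, 140.1 and 134 CPM in control and 46.7, 45.2 and 46.2 CPM in ETV4 KO, a log2 difference of -1.56 (SE 0.040, edgeR adjusted p = 3.26e-24). Ifitm2, its close relative on the same stretch of chromosome 7, was at 38.0, 40.6 and 42.3 CPM and 33.2, 41.2 and 34.5 CPM, with overlapping groups (-0.15, SE 0.062, edgeR adjusted p = 0.0286). The Ifitm2 call was lost with DESeq2 (adjusted p = 0.0675) and in edgeR without control replicate 2 (0.0755), control replicate 3 (0.134), ETV4 KO replicate 1 (0.218) and ETV4 KO replicate 3 (0.136), while without ETV4 KO replicate 2 the log2 fold change was -0.25. The adjusted p-values of its 15 alternatives ran from 4.83e-05 to 0.218. Of the 50-base words of Ifitm2, 48.5% occur in another annotated gene, mostly the overlapping Gm45717, which had 0 counts. Bst2 (tetherin), which holds budding virus at the surface, was at 19.5, 20.5 and 20.1 CPM and 16.6, 18.5 and 17.6 CPM (-0.19, SE 0.065, edgeR adjusted p = 0.00941). This call was lost without ETV4 KO replicate 1 (edgeR adjusted p = 0.0608) and with the bin median taken out (-0.07, edgeR adjusted p = 0.34). Of these 3 genes only Ifitm3 fell by more than 2-fold.

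The remaining 14 genes held both the largest falls and a rise. Sp100, a component of PML nuclear bodies (chromosome 1, 85649988 to 85709998 in mm10), went from 16.3, 16.1 and 14.9 CPM in control to 0.873, 0.848 and 1.00 CPM in ETV4 KO, a log2 difference of -4.11 (SE 0.13, edgeR adjusted p = 6.49e-22). Lgals3bp, a secreted glycoprotein that binds galectins (chromosome 11, 118392751 to 118402092), went from 18.6, 19.5 and 19.8 CPM to 1.22, 0.929 and 1.17 CPM (-4.11, SE 0.12). Both kept about 1 CPM in each ETV4 KO library. Ddx60, a helicase that aids RNA sensing, went from 6.94, 7.57 and 6.69 to 0.559, 0.727 and 0.711 CPM (-3.41, SE 0.17). Rtp4, a receptor-transporting protein, went from 2.97, 2.99 and 2.33 to 0.140, 0.162 and 0.460 CPM (-3.47, SE 0.30; -4.16 without ETV4 KO replicate 3). Cmpk2, a mitochondrial nucleotide kinase, had 13 or 14 counts in each control library and 2 to 4 in each ETV4 KO library (-2.35, SE 0.49). In Sp100, Lgals3bp and Ddx60, which reached the filter's cutoff in all 6 libraries, every ETV4 KO library lay below every control library, as in 36.6% of all tested genes. Rtp4 and Cmpk2 passed the filter on their control level alone.

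Xaf1, which opposes an inhibitor of apoptosis, had -2.16 (SE 0.20), from 3.81 to 0.850 CPM on average. Ifi27, at 42.3 CPM in control, and Ifi35, a partner of NMI at 30.0 CPM, had -1.55 and -1.38 (SE 0.058 and 0.064); Ifi35 lies on chromosome 11 and had -0.92 with its bin median taken out. The helicase Helz2 went from 26.9, 27.1 and 28.2 CPM to 15.1, 14.7 and 13.6 CPM (-0.92, SE 0.063). Samd9l, which limits translation in infected cells, had -0.42 (SE 0.081), and Znfx1, a helicase that senses viral RNA, had -0.36 (SE 0.057). In each of these genes every ETV4 KO library lay below every control library, as in 36.6% of all tested genes. Shisa5, an endoplasmic reticulum protein also induced by p53, was at 91.0, 96.7 and 97.3 CPM in control and 104, 108 and 105 CPM in ETV4 KO, a rise of 0.16 on the log2 scale (SE 0.038, edgeR adjusted p = 4.75e-04), and 0.09 with its bin median taken out (edgeR adjusted p = 0.0472). Rsad2 (viperin), the neighbour of Cmpk2, had 10 counts in control and 13 in ETV4 KO, a control to KO ratio of 0.814 (95% counting interval 0.320 to 2.01). Ifi44 had 8 and 5, a ratio of 1.69 (0.489 to 6.58). Neither difference was detectable at this depth, and these intervals cover counting error only.

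**Figure D3:**
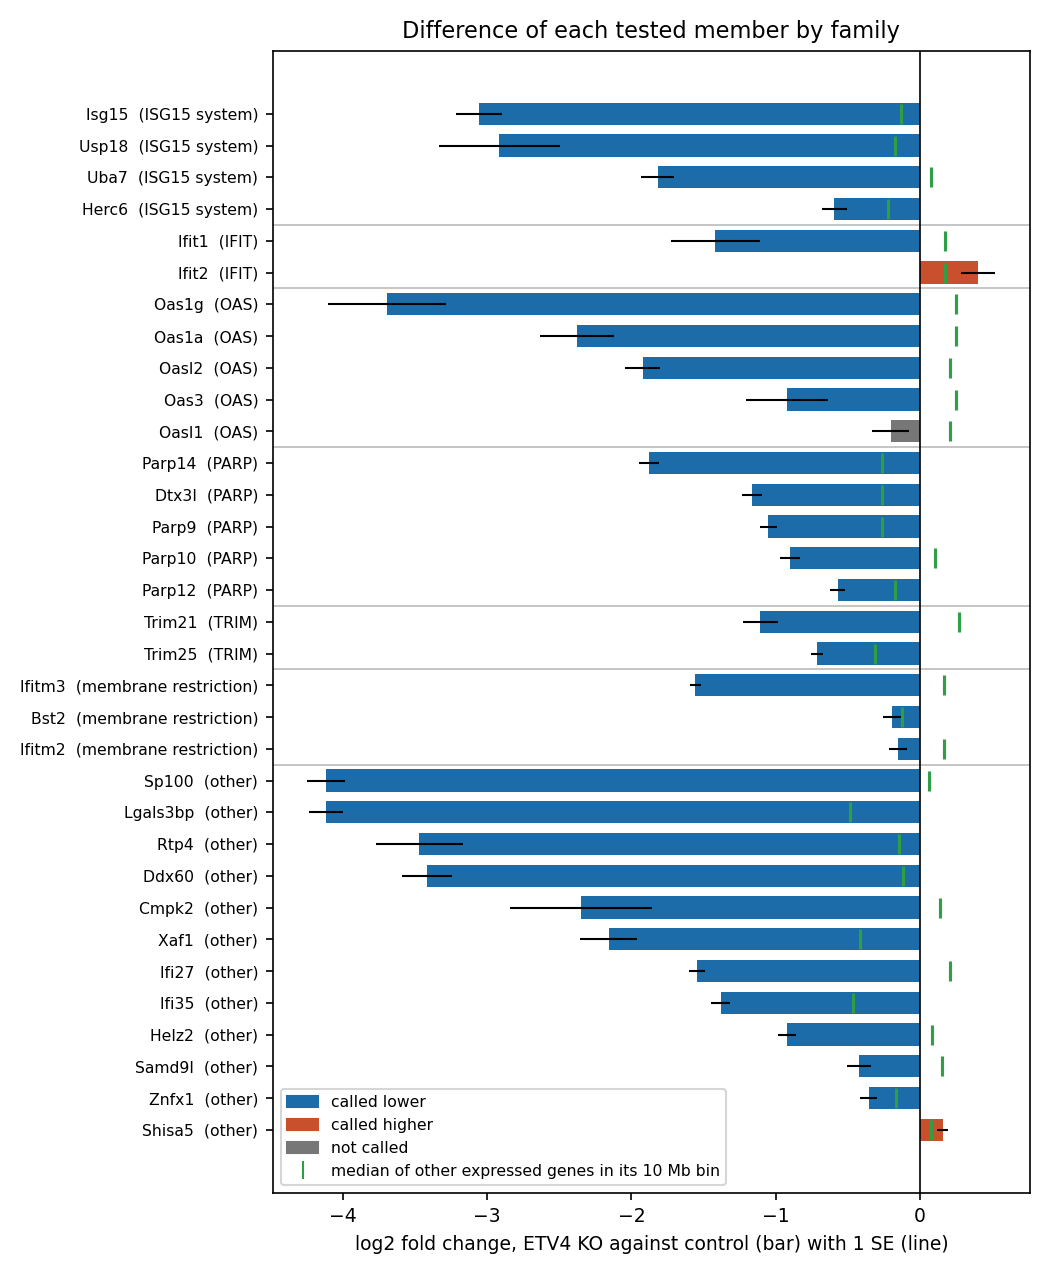
Log2 fold change of each tested effector gene (bar, ETV4 KO against control) with 1 SE (line), by family, and the median of the other expressed genes of its 10 Mb bin (green tick). Bars run from -4.11 (Sp100) to 0.40 (Ifit2), and the green ticks from -0.48 (Lgals3bp) to 0.27 (Trim21).

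The basal level was taken as the control CPM per kb of merged exons, so that genes can be compared. Ifitm3 was highest at 199.8 CPM per kb, followed by Ifitm2 at 61.5, Shisa5 and Ifi27 at 28.8 each, Bst2 at 22.2, Ifi35 at 17.4, Isg15 at 16.3, Trim25 at 16.2 and Parp12 at 12.2. These 9 genes, all above 10 CPM per kb, ranged from Isg15, which dropped to 1.96 CPM per kb in ETV4 KO, to Shisa5, which rose to 32.2. Of the 9, 8 were called lower and 4 by at least 2-fold, with a median log2 fold change of -0.71, against 39.7% and 1.37% of all tested genes in this class. Between 1 and 10 CPM per kb 15 of 17 were called lower and 10 by at least 2-fold, with a median of -1.11, against 36.1% and 5.71%. Under 1 CPM per kb stood 14 genes, of which 7 were tested. All 7 were called lower, 6 by at least 2-fold, with a median of -2.35, against 28.0% and 17.4% of the class. But 4 of them (Ifit1, Oas1g, Usp18 and Cmpk2) passed the filter on their control level alone, a route that favours genes with a fall. In the class above, Oas1a and Rtp4 passed in the same way. The control level is part of each fold change, so the classes are a description. Sp100 at 2.09 and Lgals3bp at 6.79 CPM per kb were in the middle class, and so were Ifit2 at 1.10 and Oasl1 at 2.03.

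**Figure D4:**
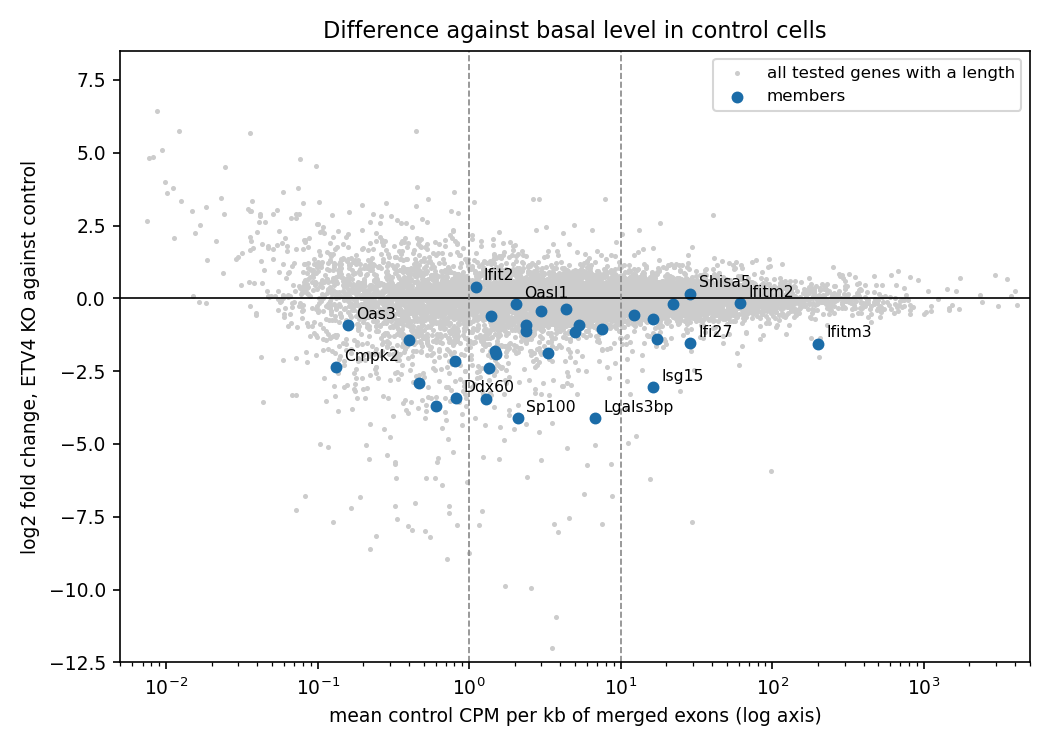
Log2 fold change (ETV4 KO against control) against the mean control CPM per kb of merged exons on a log axis, for all tested genes with a length and a control level within the axis (grey) and for the effector genes (blue), with dashed lines at 1 and 10 CPM per kb. Effector genes lie mostly below 0 at every level, with Isg15, Ifi27 and Ifitm3 among those above 10 CPM per kb.

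The genes are spread over many chromosomes (positions in mm10). The OAS enzymes lie together on chromosome 5, from Oas2 at 120730333 to Oas1a ending at 120907521. The IFIT genes lie on chromosome 19, from Ifit2 at 34550694 to Ifit1 ending at 34650009. Parp14, Dtx3l and Parp9 lie on chromosome 16, from 35832874 to 35972605, and Ifitm2 and Ifitm3 on chromosome 7, from 140954837 to 141010770. Lgals3bp, Ifi35, Xaf1 and Trim25 lie on chromosome 11, which also carries Etv4 and whose expressed genes had a median log2 fold change of -0.38. The medians of the 10 Mb bins ranged from -0.48 to 0.27 over the tested genes. With these medians taken out, 30 of the 33 genes were called lower and 1 higher, with a median of -1.38. In the fit without this step 36.0% of all tested genes were called lower. Oasl1 became a call, and those of Bst2 and Ifit2 were lost. This step treats the bin median as known and leaves out the spread of genes around it.

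Other genes of the interferon pathway were read from lists that do not share genes with the 41. Of 21 interferon genes 17 had 0 counts in all 6 libraries, and the others together had 6 counts. No interferon gene was thus counted above the limit that 3 counts in a library allow (0.132 CPM in the smallest). How reads matching several genes were treated is not stated, so this limit holds for assigned reads only. Among 9 receptor and kinase genes 7 were called lower (36.0% over all genes), with a median of -0.26, and all 9 log2 differences were below 0. Ifnar1 was at 67.4, 66.8 and 67.4 CPM in control and 57.4, 58.4 and 56.4 CPM in ETV4 KO (-0.23, SE 0.041), and Ifnar2 had -0.02 (SE 0.081, edgeR adjusted p = 0.838). Both lie in a 10 Mb bin with a median of -0.29, so Ifnar1 fell no more than its neighbours. The kinase Jak2, which serves the interferon gamma receptor, fell most, from 183, 174 and 185 CPM to 83.4, 78.4 and 83.4 CPM (-1.14, SE 0.038). The kinase Tyk2 had -0.68 and the receptor chain Ifngr2 -0.63 (SE 0.063 and 0.058). Bin medians were 0.08 for Jak2, -0.07 for Tyk2 and -0.29 for Ifngr2.

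Among 9 transcription factors of the pathway 8 were called lower (36.0% over all genes) but none by 2-fold (6.02% over all genes), with a median of -0.63, and Irf3 was not called (-0.07, edgeR adjusted p = 0.212). Stat2 and Irf9, of the ISRE-binding complex, were each lower by less than 2-fold. Stat2 went from 23.2, 25.4 and 24.9 to 14.7, 15.1 and 16.7 CPM (-0.66, SE 0.066), and Irf9 from 10.6, 11.4 and 10.2 to 7.62, 8.28 and 8.37 CPM (-0.41, SE 0.089). The groups did not overlap in either gene, as in 72.7% of all tested genes. Irf7, itself an interferon target, had -0.82 (SE 0.21) at 2.28 CPM in control, Irf1 -0.65 (SE 0.056), Irf2 -0.63 (SE 0.044) and Stat3 -0.54 (SE 0.042). Bin medians were -0.46 for Stat3, -0.34 for Irf1, -0.13 for Irf2, -0.11 for Stat2, 0.14 for Irf7 and 0.15 for Irf9.

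Of 11 tested genes for RNA and DNA sensing 8 were called lower and 2 higher (36.0% and 35.0% over all genes), with a median of -0.31. Dhx58 (LGP2), a helicase related to RIG-I, fell from 5.69, 6.09 and 6.07 CPM to 0.384, 0.202 and 0.502 CPM (-4.02, SE 0.21). It had 11, 5 and 12 counts in ETV4 KO and passed the filter on its control level alone, a route that favours genes with a fall. Ddx58, which encodes RIG-I, had -1.20 and the receptor Tlr3 -0.77 (SE 0.066 and 0.066), while the adaptor Mavs rose by 0.26 (SE 0.052). The other expressed genes of the Mavs bin had a median of 0.28, so its rise was no larger than theirs. Bin medians were -0.46 for Dhx58, -0.15 for Ddx58 and -0.13 for Tlr3. Among 8 negative regulators 3 were called lower (37.5%, near the 36.0% of all genes) and 2 higher (35.0% over all genes), with a median of -0.04. Socs3 had -0.47, Pias4 -0.41 and Ptpn1 -0.12, and the phosphatase Ptpn6 rose by 0.84 (SE 0.063). Their bin medians were -0.49, -0.13, -0.17 and -0.18, so Socs3 and Ptpn1 fell no more than their neighbours. Of 27 tested genes in a list of other interferon-induced genes 22 were called lower (36.0% over all genes), 16 of them by at least 2-fold (6.02% over all genes), and 1 higher, with a median of -1.25. Some of the 27 missed the filter's cutoff in ETV4 KO libraries and passed on their control level alone. That route favours genes with a fall, so these counts and the median are a description. Tap2, a peptide transporter subunit, had -1.77, and the immunoproteasome subunits Psmb8 and Psmb10 -3.30 and -1.25 (SE 0.072, 0.11 and 0.055). Ifi203, of the AIM2-like family, rose by 0.12 (SE 0.051, edgeR adjusted p = 0.0344), with overlapping groups.

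**Figure D5:**
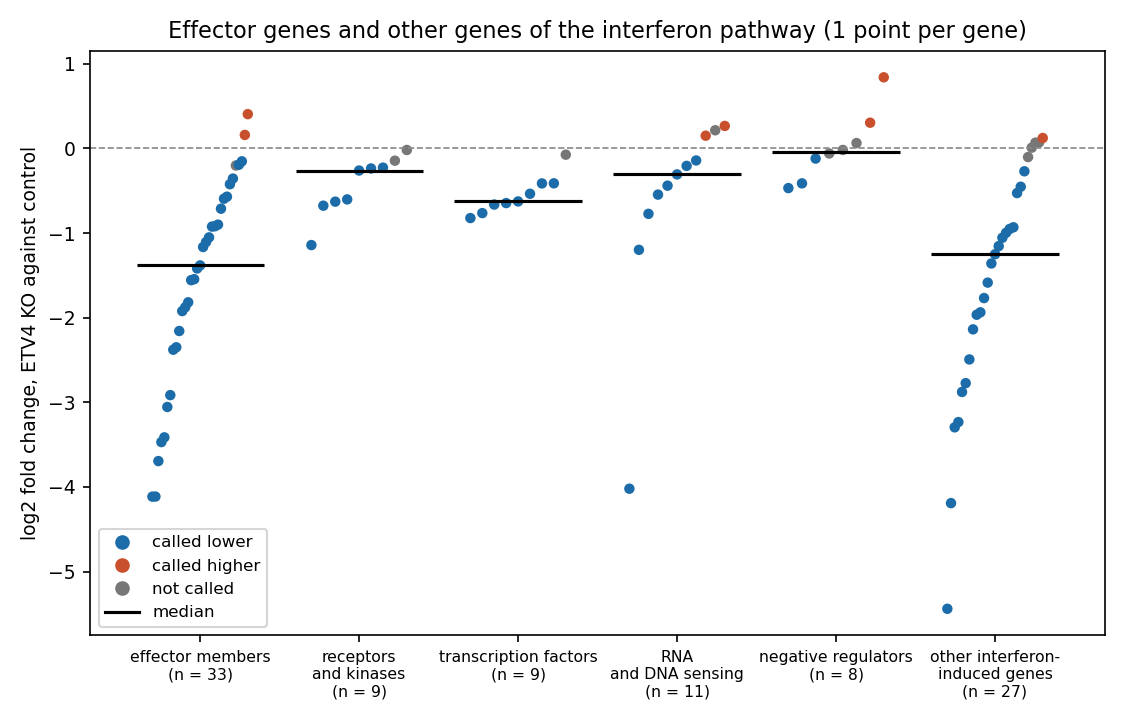
Log2 fold change (ETV4 KO against control) of the tested effector genes and of 5 lists of other interferon pathway genes, 1 point per gene, coloured by call, with the median of each list as a black line. The medians are -1.38 for the effector genes, -0.26 for receptors and kinases, -0.63 for transcription factors, -0.31 for sensing, -0.04 for negative regulators and -1.25 for other interferon-induced genes.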

How the data were processed

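Poly(A) RNA of 3 control and 3 ETV4 KO samples was sequenced, and groups were taken from the sample titles. The authors deposited raw read counts per gene symbol, with no normalization. Per the submitters' processing notes, STAR 2.7.9a, featureCounts, FastQC 0.11.9 and R 4.1.1 were used, and the builds mm10 and hg38 are named without their roles. How reads with several matches were treated, the strand option of the counting and its annotation are not stated there, so near-identical or overlapping genes are uncertain. Library preparation was stranded, per the labels' protocols.

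The deposited counts were analysed with edgeR 4.0.16 in R 4.3.3: filterByExpr by group (minimum count 10, minimum total 15), TMM factors, then glmQLFit and glmQLFTest on a model of group alone, and Benjamini-Hochberg adjustment over 12076 genes, with calls at an adjusted p under 0.05. Each SE was derived from the log2 fold change and its F statistic (size over root F). Counting intervals are 95% Clopper-Pearson. Positions, exon lengths and shared 50-base words come from GENCODE M21 (GRCm38, equal to mm10), which gave 1 position for 30416 of 31017 symbols; Cgas and Sting1 were read under the older symbols Mb21d1 and Tmem173. Expressed genes of a 10 Mb bin have an edgeR log2 CPM above 3, and a bin with fewer than 10 others takes the chromosome's median. Promoter windows are from RefSeq (GRCm38.p6). Alternatives were RLE and upper-quartile factors, library size only, DESeq2 1.42.0, limma-voom (limma 3.58.1), other filters, a replicate block, each sample left out, bin medians taken out, and other thresholds. Named genes are the 41 effector genes, Etv4, Etv1 and Etv5, the main signalling genes whatever their values, and per other pathway list at most 3 called genes of the majority direction, by smallest adjusted p, and 1 of the opposite direction, plus expressed genes overlapping a member. Members and lists were chosen with earlier results of these data known. A gene covered by that rule is not reported here.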

Additional observations from a re-analysis of the deposited data

How the results depend on the processing

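Of the 33 tested effector genes, 29 kept their direction and their side of the threshold in each of the 15 alternatives in tool, normalization, filter, block, samples and genome position that could fit them, and 0 of the 33 changed sign. The other 4 were Ifitm2, Bst2, Ifit2 and Oasl1, with the values given above. Between 28 and 31 genes were called lower over the settings at an adjusted p under 0.05, and 29 at an adjusted p under 0.01. Leaving out 1 sample gave 28 to 30 genes lower, 2 higher and a median log2 fold change of -1.41 to -1.28. The median was -1.13 with no low-count filter (40 genes) and -1.17 with a filter of at least 1 CPM in 3 samples (31 genes), where the genes entering the median differ. With bin medians taken out 1 gene was called higher. Tested against a fold change of 1.5 with edgeR's glmTreat, 23 genes were lower and 0 higher, where the test against no change gave 2 higher, and over all genes 949 were lower and 735 higher. Same-numbered samples had deviations from their group means that correlated at 0.019 to 0.071, and samples with different numbers at -0.086 to 0.020. These values are small and their ranges meet, so they do not settle whether the numbers pair the samples. With the replicate block 30 genes were called lower and 2 higher, with a median of -1.38, and over all genes 4504 lower and 4378 higher. In that fit and without a filter edgeR's prior degrees of freedom were unbounded. Depth limits the genes with few counts: 7 of the 40 were not tested.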
